A study of Homo sapiens with 2 samples.

Results

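The genes described here are 7 inhibitors of cyclin-dependent kinases (CDKs), ZBTB17, which encodes the MYC partner MIZ1, and GADD45A, a growth-arrest gene. They were chosen by name, and MYC binding was read as peaks whose summit lay within 5 kb of a listed start site on the GRCh37 build. The 9 genes have 10 listed start sites, since CDKN2A has a separate start for each of its proteins. Their windows held 11 of the 17659 MYC peaks (0.0623%), and 6 of the 9 genes had a peak.

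The peaks come from 1 ChIP-seq library of TET21 (SH-EP/TET21/N) cells. These are a human neuroblastoma clone derived from SH-EP, and their MYCN transgene is switched off by doxycycline. They expressed wild-type MYC ectopically, were kept in doxycycline at 1 µg/mL for 7 days and were fixed in 1% formaldehyde for 10 min. The single control was 1 input library of the same cells, so there was no group without MYC and no replicate. The labels do not say whether the rabbit anti-MYC antibody separates ectopic from endogenous MYC, and the neuroblastoma identity of the cells cannot be checked against markers in a peak list.

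CDK inhibitors hold back entry into S phase. The CIP/KIP proteins p21 (CDKN1A), p27 (CDKN1B) and p57 (CDKN1C) bind cyclin-CDK complexes, and the INK4 proteins p16 (CDKN2A), p15 (CDKN2B), p18 (CDKN2C) and p19 (CDKN2D) bind CDK4 and CDK6. MYC with MAX is known to activate genes at E-boxes, whose canonical form is CACGTG. It is also known to repress several of these inhibitors, p15 and p21 in particular, through the zinc finger protein MIZ1, which binds near their start sites without an E-box being required. A peak shows binding and not the direction in which transcription moved, and RNA was not analysed here.

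Because the route through MIZ1 does not require an E-box, the bases upstream of the start sites were read for E-boxes. RefSeq promoter windows (GRCh38.p14) were found for 6 of the 9 genes, as 9 windows, 2 of them for CDKN2A and 3 for CDKN2C. The 250 bases before each start are shown 5′ to 3′ on the gene's strand for the CIP/KIP and INK4 genes on which the results turn. Capitals mark CACGTG or any of the 4 variants searched, on either strand and with overlaps kept. The variants were CACGCG, then CATGTG, then CACGAG, and lastly CATGCG. The first 4 belong to genes with a MYC peak and the last 2 to genes without one. The RefSeq starts were not matched to the GRCh37 start sites, so a summit cannot be placed on these letters.
CDKN1A, chr6:36678464-36678713, plus strand: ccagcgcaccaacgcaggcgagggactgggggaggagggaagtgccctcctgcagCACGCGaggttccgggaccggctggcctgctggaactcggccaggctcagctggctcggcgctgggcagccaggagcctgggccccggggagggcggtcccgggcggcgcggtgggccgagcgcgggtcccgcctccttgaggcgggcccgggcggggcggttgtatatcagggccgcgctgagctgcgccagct
CDKN1B, chr12:12717118-12717367, plus strand: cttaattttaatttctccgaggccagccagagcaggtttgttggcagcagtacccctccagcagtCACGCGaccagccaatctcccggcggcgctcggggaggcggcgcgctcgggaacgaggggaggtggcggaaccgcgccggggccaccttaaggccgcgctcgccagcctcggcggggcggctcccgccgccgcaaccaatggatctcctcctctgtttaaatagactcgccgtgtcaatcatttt
CDKN2C, the middle of its windows, chr1:50968456-50968705, plus strand: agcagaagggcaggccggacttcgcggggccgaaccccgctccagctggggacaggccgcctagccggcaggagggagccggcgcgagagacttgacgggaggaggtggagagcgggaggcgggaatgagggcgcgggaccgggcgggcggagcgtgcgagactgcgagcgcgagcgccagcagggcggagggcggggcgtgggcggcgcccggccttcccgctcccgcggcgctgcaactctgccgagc
CDKN2D, chr19:10568980-10569229, minus strand: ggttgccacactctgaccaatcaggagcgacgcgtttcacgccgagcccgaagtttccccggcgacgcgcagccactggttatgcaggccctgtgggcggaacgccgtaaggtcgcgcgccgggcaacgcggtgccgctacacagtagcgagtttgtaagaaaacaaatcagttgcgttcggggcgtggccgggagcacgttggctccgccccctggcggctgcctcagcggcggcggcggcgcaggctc
CDKN2A, the downstream window, chr9:21974858-21975107, minus strand: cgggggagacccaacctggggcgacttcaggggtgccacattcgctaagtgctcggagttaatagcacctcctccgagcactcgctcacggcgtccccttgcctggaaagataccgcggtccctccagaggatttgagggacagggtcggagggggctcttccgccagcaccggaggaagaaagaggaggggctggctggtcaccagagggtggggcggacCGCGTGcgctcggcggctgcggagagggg
CDKN2B, chr9:22009306-22009555, minus strand: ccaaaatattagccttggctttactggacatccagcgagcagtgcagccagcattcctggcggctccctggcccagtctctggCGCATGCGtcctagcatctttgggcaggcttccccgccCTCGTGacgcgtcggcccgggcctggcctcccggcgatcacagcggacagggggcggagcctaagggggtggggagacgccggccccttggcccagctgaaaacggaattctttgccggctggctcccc

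None of these 6 stretches held CACGTG, but the first and last windows of CDKN2C were not among them. Of the 9 windows 2 held it, both of CDKN2C, against 6.34% of 35116 RefSeq promoter windows of the same length. Those sites are shown within 30 bases each, the E-box in capitals.
CDKN2C, first window, chr1:50960513-50960542, plus strand: gattgtgcacctCACGTGgttagtcacaca
CDKN2C, last window, chr1:50970164-50970193, plus strand: ttgctgaataatCACGTGtgaatcgagggg
In CDKN2C the E-box began 220 bases before the first start and 69 bases before the last. Whether either E-box lies under a MYC peak was not tested, since the starts were not matched between builds. CDKN1A and CDKN1B each held 1 CACGCG, beginning 195 and 185 bases before the start. CDKN2A held 1 CACGCG (read here as its reverse complement) 29 bases before its downstream start. CDKN2B, which had no MYC peak, held the most variants, an overlapping pair of CATGCG and 1 CACGAG. In all, 4 of the 9 windows held a variant, against 27.0% of all windows. The shares over all windows were not matched to these genes for GC or CpG content. The CDKN2D window, the upstream window of CDKN2A and the middle window of CDKN2C held none of the 5 motifs. Thus variant E-boxes occurred in windows of genes with a peak and of genes without one.

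CpG content is a feature the choice of genes did not use. All 9 windows had a ratio of observed to expected CpG above the median of all windows, 0.558, from 0.63 in the first window of CDKN2C to 1.16 in CDKN2D. The number of CpG was above the median of 11 in 7 of the 9, up to 35 in the middle window of CDKN2C. The GC content was above the median of 58.0% in 7 of the 9 and was highest in the middle window of CDKN2C (77.2%) and in CDKN1A (76.4%). The 2 CDKN2C windows with CACGTG were the exceptions, with a GC content of 45.6% and 48.8% and with 7 and 10 CpG.

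MYC peaks lay at the start sites of CDKN1A, CDKN1B, CDKN2C, CDKN2D, ZBTB17 and GADD45A, and no peak lay within 5 kb of CDKN1C, CDKN2A or CDKN2B. As background, 4.63% of positions between the first and last peak of chromosomes 1 to 22 and X lay within 5 kb of a summit. Start sites of other genes on GRCh37 were not used here, so the share for promoters in general is not given. In each of the 6 bound genes the closest summit was 81 to 390 bp from the start, and 0.556% of positions lay within 500 bp of a summit. The closest summit was upstream in 5 of the 6 genes, and the peak itself covered the start in 4. Only the ZBTB17 summit was downstream. The 5 kb limit did not decide which genes had a peak: the farthest summit inside it was 3621 bp from the CDKN2D start, and the nearest outside it was 6647 bp from the CDKN1B start.

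**Figure D1:**
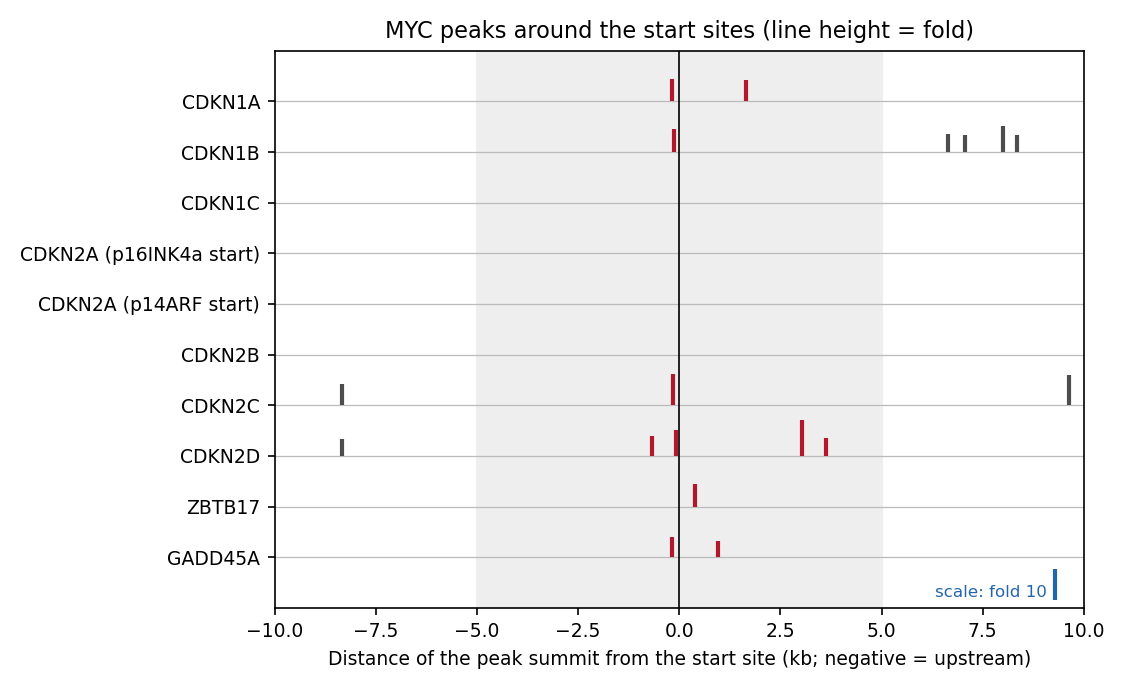
Position of MYC peak summits within 10 kb of each of the 10 start sites, in kb along the direction of transcription (negative is upstream); the height of each line is the fold over the local background, with a blue scale line of fold 10. Red lines lie inside the grey 5 kb window and dark grey lines outside it. Each of the 6 bound genes has a red line 81 to 390 bp from the start, while CDKN1C, CDKN2B and both starts of CDKN2A have no line.

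The folds are the authors' values for enrichment over the caller's local background. The number of ChIP fragments over a summit, the pileup, was recovered from the fold and the p-value. Its exact 95% Poisson interval covers counting error only, and without molecular identifiers 2 fragments may stem from 1 molecule.

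Among the CIP/KIP genes, CDKN1A had its start site at chr6:36646459 and 2 peaks. CDKN1A encodes p21, the classic p53 target and inhibitor of CDK2. The peak at chr6:36646178-36646462 covered the start, with the summit 188 bp upstream, a fold of 6.92 and a pileup of 15 fragments (8.4 to 24.74) over a background of 1.31. The other, at chr6:36647975-36648424, had its summit 1640 bp downstream, a fold of 6.68 and a pileup of 13 fragments (6.92 to 22.23). The peaks had nearly the same fold and overlapping intervals. The downstream peak was the widest of the 11, at 450 bp, against a median of 226 bp in the whole list. A peak with a higher fold, 11.68, lay 11409 bp upstream and outside the window, and its 19 fragments (11.44 to 29.67) overlapped in interval with the 15 at the start. The RefSeq gene table lists DINOL, a noncoding RNA gene, as overlapping CDKN1A, so peaks here cannot be assigned to 1 of these genes.

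CDKN1B, which encodes p27, had its start at chr12:12870302 and 1 peak inside the window. This peak, at chr12:12870020-12870263, ended short of the start, with the summit 138 bp upstream. Its fold was 7.33, and 16 fragments (9.15 to 25.98) lay over a background of 1.32. Just outside the window, 4 peaks followed at 6647, 7062, 7997 and 8352 bp downstream, with folds of 5.68, 5.45, 8.18 and 5.42. They lie beyond the 5002 bp that RefSeq gives as the length of CDKN1B, on the side of the neighbouring coding gene APOLD1. The strongest of these 4 had a higher fold than the promoter peak, but its 14 fragments (7.65 to 23.49) overlapped in interval with the 16 of the promoter.

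CDKN1C, which encodes p57 and is imprinted, had no peak within 5 kb of its start at chr11:2906995. The nearest summit was 26924 bp upstream, with a fold of 5.37 over a background of 1.98. All 5 peaks within 100 kb lay upstream, from 26924 to 66193 bp away, and the strongest had a fold of 10.05. On the downstream side the next summit was 185674 bp away. The 3 CIP/KIP genes thus divided into CDKN1A and CDKN1B with a promoter peak and CDKN1C without one.

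Among the INK4 genes, CDKN2C had the strongest start-site peak of the whole set by fold. CDKN2C encodes p18, and its start was at chr1:51434367. The peak at chr1:51434098-51434384 covered the start, with the summit 158 bp upstream, a fold of 9.76 and 17 fragments (9.9 to 27.22) over a background of 0.843. This fold was reached or passed by 16.8% of all peaks. The nearest peaks outside the window were 8350 bp upstream, with a fold of 6.59, and 9645 bp downstream, with a fold of 9.51. The upstream one lay on the side of FAF1, the neighbouring coding gene, which is transcribed in the opposite direction. CDKN2C itself has 3 RefSeq promoter windows, which end at chr1:50960744, chr1:50968705 and chr1:50970244 on GRCh38. If the listed start is that of the middle window, this peak would lie close to the first start of CDKN2C. The starts were not matched between builds, so this was not tested. The upstream peak had more fragments than the promoter peak, 23 (14.58 to 34.51), over a background of 2.64. It therefore ranked above the promoter peak by pileup and below it by fold.

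CDKN2D, which encodes the INK4 protein p19, had 4 peaks, the most of any member, around its start at chr19:10679654. The peak at chr19:10679612-10679917 covered the start. Its summit was 81 bp upstream, the closest of all, with a fold of 8.19 and 18 fragments (10.67 to 28.45). A neighbour at chr19:10680243-10680453, 684 bp upstream, also had 18 fragments but a fold of 6.38, over the highest background of the 11 peaks, 1.98. The other 2 lay downstream, at 3028 bp with a fold of 11.37 and at 3621 bp with a fold of 5.60.

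The peak 3028 bp downstream of the CDKN2D start, at chr19:10676513-10676804, was the strongest of all 11, with 19 fragments (11.44 to 29.67) over a background of 0.759. RefSeq gives CDKN2D a length of 2520 bp, so both downstream peaks lie beyond it. The next coding gene on that side is KRI1, on the same strand, whose start therefore faces the end of CDKN2D. Distances to KRI1 on GRCh37 were not measured. With the downstream pair set aside, the highest fold at CDKN2D was that of its start-site peak, 8.19.

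CDKN2A and CDKN2B, neighbours on chromosome 9, had no MYC peak within 5 kb of any of their 3 start sites. CDKN2A encodes p16 from the start at chr9:21974826 and the MDM2 inhibitor p14ARF from that at chr9:21994490, and CDKN2B encodes p15 from chr9:22009312. The nearest summit was the same for all 3 starts. It was at chr9:22052578, 77752 bp from the p16 start, 58088 bp from the ARF start and 43266 bp from the CDKN2B start, with a fold of 6.47 and 14 fragments over a background of 1.32. On the other side the next summit was at chr9:21803272, with a fold of 8.37. The stretch between these summits, 249.3 kb, was free of peaks. The median distance between neighbouring summits was 40.1 kb, and 14.4% of distances were at least as long as this one. Such long stretches make up 73.7% of the length spanned by peaks, so a position in one is common. CDKN1C lay in a peak-free stretch of 212.6 kb, a length reached by 16.6% of distances. Stretches at least that long make up 76.8% of the length spanned by peaks.

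At these 3 genes no peak was called, which does not show that binding was absent. At backgrounds within 0.05 of the list's median, 1.12 fragments, the weakest of 749 called peaks had a pileup of 7. At the lowest backgrounds, up to 0.69 fragments, peaks with a pileup of 5 were called, and no peak of the list had fewer. The input coverage and the DNA copy number at the CDKN2A, CDKN2B and CDKN1C promoters were not analysed here. The limit that applies to them, and whether a peak could have been called there at all, is therefore unknown.

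ZBTB17, the gene of MIZ1 itself, had 1 peak in its window. Its start was at chr1:16302627, and the peak at chr1:16302128-16302286 had its summit 390 bp downstream, the farthest of the 6 closest summits. The fold was 7.05, with 12 fragments (6.2 to 20.96) over a background of 0.843. The peak was narrow, 159 bp, and 81.8% of all peaks were at least as wide. Farther along, peaks 25215 and 26312 bp downstream had folds of 7.16 and 12.48. Their 13 fragments (6.92 to 22.23) and 24 fragments (15.38 to 35.71) overlapped in interval with the 12 at the start. RefSeq gives ZBTB17 a length of 34233 bp, so that, at this length, both would lie inside the gene. It also lists LOC124903855 as overlapping ZBTB17, and peaks here were not assigned to 1 of these genes.

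GADD45A, which encodes a stress-induced protein that arrests growth, had 2 peaks around its start at chr1:68150860. The peak at chr1:68150584-68151020 covered the start, with the summit 184 bp upstream, a fold of 6.40 and 12 fragments (6.2 to 20.96). At 437 bp it was the widest of the peaks closest to a start. The second, at chr1:68151712-68151853, lay 951 bp downstream and was the weakest of the 11, with a fold of 5.04 and 9 fragments (4.12 to 17.08). It was 142 bp wide, and no peak of the list was narrower. By fold GADD45A therefore had the weakest start-site peak of the 6 bound genes, equal to the list's median fold.

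**Figure D2:**
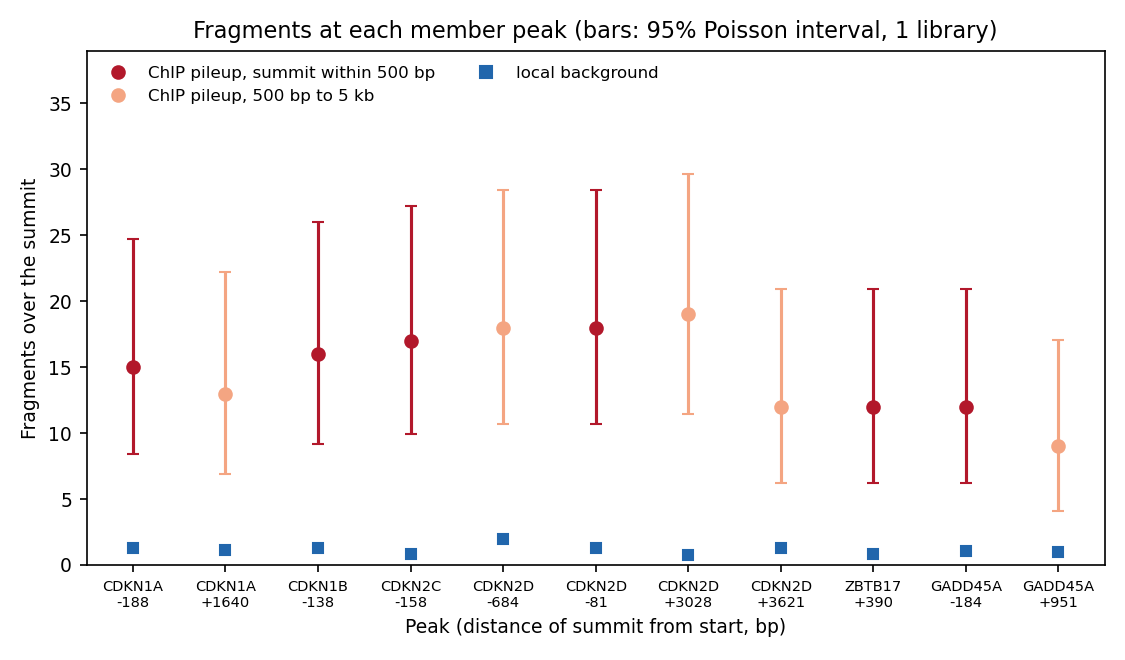
ChIP fragments over the summit (pileup, circles) with exact 95% Poisson intervals, and the caller's local background (blue squares), for the 11 peaks; the x axis names the gene and the distance of the summit from its start in bp. The pileups run from 9 to 19 fragments with overlapping intervals, all above backgrounds of 0.759 to 1.98.

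The order of the 6 start-site peaks by fold was CDKN2C, CDKN2D, CDKN1B, ZBTB17, CDKN1A and GADD45A, from 9.76 to 6.40. By pileup they ranged from 12 to 18 fragments, and all 6 Poisson intervals overlapped. The order is therefore a description of this library, and no difference between neighbours in it was shown. The intervals are for the pileup alone, whereas the fold also depends on the local background.

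Set within the whole list, the promoters of these genes carried peaks of ordinary strength. The 11 peaks had a median fold of 6.92 (5.04 to 11.37), against a median of 6.40 and quartiles of 5.17 and 8.38 over all peaks. Their median pileup was 15 against 13, and their median width was 287 bp against 226 bp. A fold at or above the list's median was found for 8 of the 11, where 50.3% of all peaks reach it, and for all 6 start-site peaks. A fold of 10 or more was found for 1 of the 11, the downstream CDKN2D peak, where 15.4% of all peaks reach it. The median background under the 11 peaks was 1.10, against 1.12 in the list.

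**Figure D3:**
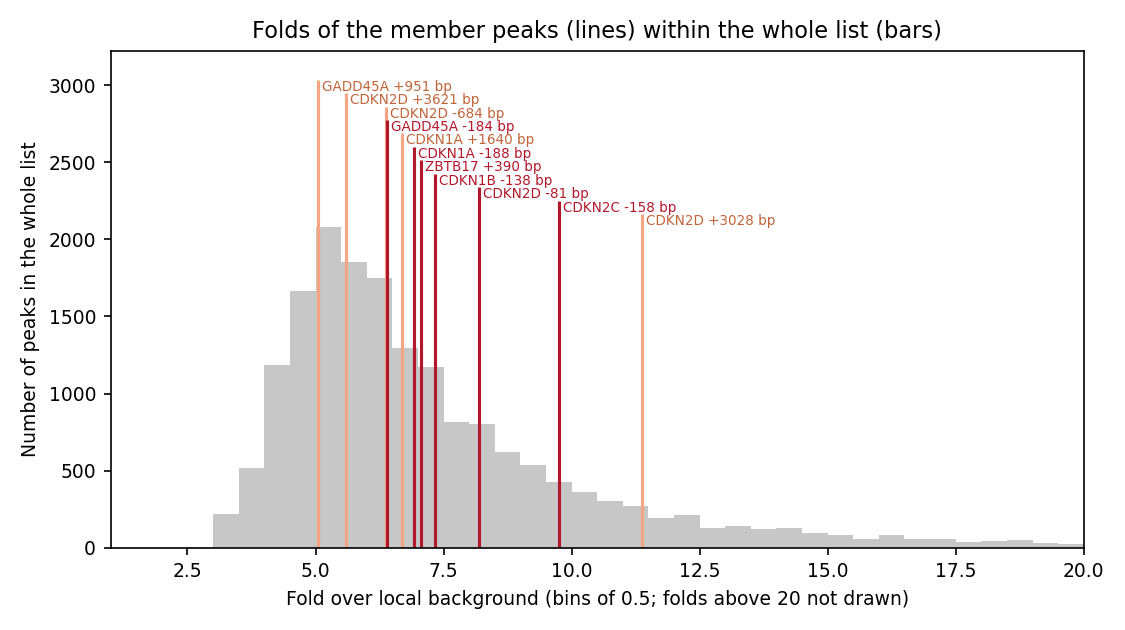
Number of peaks in the whole list by fold over the local background, in narrow bins (grey bars), with a line for each of the 11 peaks labelled by gene and distance of its summit from the start; dark red marks summits within 500 bp and light red those farther out. The lines run from 5.04 to 11.37 in the body of the distribution, and none lies in its tail above 12.

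Peaks came in close groups in the windows of 2 of the genes. Another peak lay within 1 kb of 6 of the 11 peaks, where 32.8% of all peaks have such a neighbour. These were the 4 peaks in the CDKN2D window, in 2 pairs 394 and 325 bp apart, and the pair at GADD45A, 691 bp apart. The CDKN2D pair 394 bp apart is the downstream one, which lies beyond the gene. The CDKN1A peaks were 1512 bp apart, and CDKN1B, CDKN2C and ZBTB17 had 1 peak each in the window. No measurement here separates close peaks from 1 broad site.

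The number of peaks in the wider surroundings ranged from 1 to 11. Within 100 kb on either side, CDKN2D had 11 peaks, CDKN1B had 8, and CDKN1A, CDKN1C and GADD45A had 5 each. CDKN2C and ZBTB17 had 3 each, and the 3 start sites of CDKN2A and CDKN2B shared 1. The average over chromosomes 1 to 22 and X was 1.20 peaks per window of this size. That average is over all positions and not over windows around gene starts, for which none is given here. The highest fold within 100 kb of any member was 22.15, at a peak 85219 bp upstream of CDKN2D. At CDKN2C and GADD45A the start-site peak had the highest fold within 100 kb, but not the highest pileup. The peak 8350 bp upstream of the CDKN2C start had 23 fragments against 17. A peak 28446 bp downstream of the GADD45A start, beyond the gene's RefSeq length of 3134 bp, had 16 against 12.

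**Figure D4:**
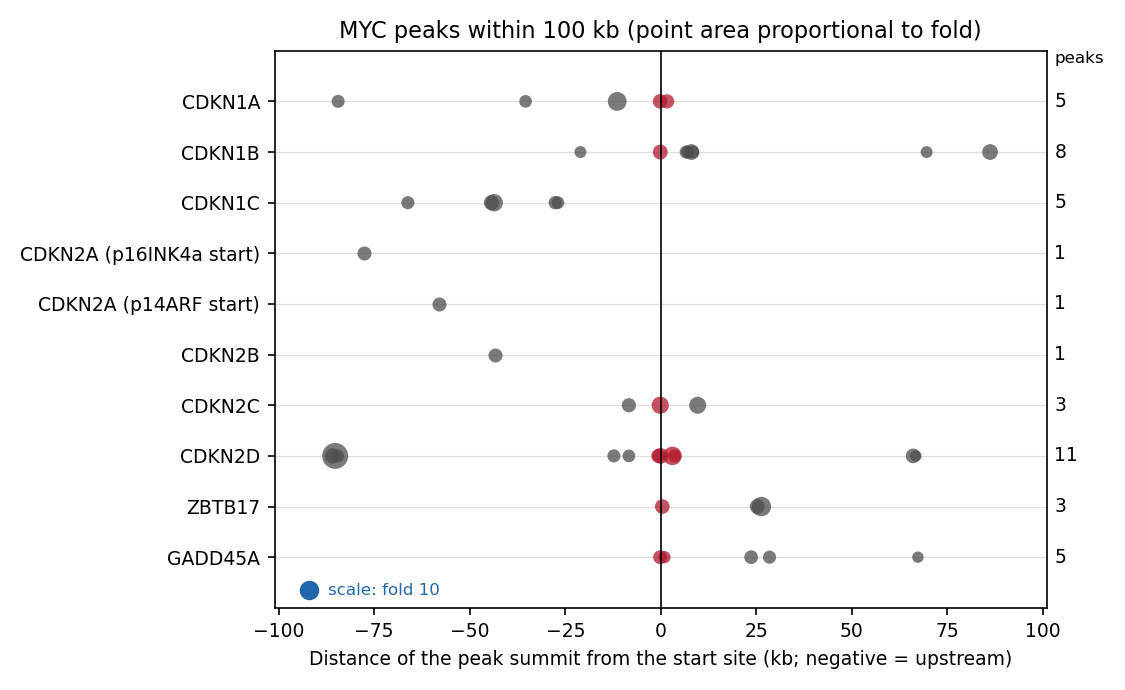
MYC peaks within 100 kb of each start site, by distance of the summit in kb along the direction of transcription; point area is proportional to fold (blue point, fold 10), red points lie within 5 kb, and the number of peaks is given at the right. CDKN2D has 11 peaks, whereas each start of CDKN2A and CDKN2B has 1, the same peak. CDKN1C has 5 peaks, all upstream and none near the start.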

How the data were processed

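MYC ChIP-seq and input were made from TET21 cells expressing wild-type MYC, with 1 library each. The list of 17659 peaks was called on 1 ChIP library, per the file's layout and peak names. Per the submitters' processing notes the build was GRCh37 and the tools were STAR 2.5.2a, SAMtools 1.3, Picard 2.7.1, MACS2 2.1.0 and bedtools, with no role or order given. The file name calls the list filtered, and the filter is not given in the sources used here. The deposited fold (a ratio), −log10 p and −log10 q are the peak caller's. The deposited score was, in 100% of peaks, the whole part of 10 times the −log10 q. Each summit is deposited as an offset in bp. Coordinates are 1-based.

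The 9 genes and their start sites were chosen with earlier results of these data known, and all 9 are named. Peaks with a summit within 5 kb were taken with Python 3.11.15, pandas 2.3.3 and scipy 1.17.1. Strands came from the RefSeq promoter table for 6 genes and from general knowledge for CDKN1C, ZBTB17 and GADD45A. Pileups were recovered as the whole number from 3 to 699 that gave the deposited −log10 p, with the fold taken as (pileup + 1) / (background + 1) and p as a Poisson tail. A number matched within 0.001 for 100% of peaks, and the step was tested on simulated data. Library depth is unknown, and precision is set by the 9 to 19 fragments under a peak. With 1 library, no test between groups was made. Alternatives were other windows, stricter thresholds, any overlap, joined peaks and other rankings. The 500 bp window and the closest-peak ranking were chosen after seeing the data. RefSeq gene lengths and neighbours are from GRCh38.p14 and were used for names, order and length only. The list of other G1 genes was not analysed, since GRCh37 start sites for them were not used here.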

Additional observations from a re-analysis of the deposited data

How the results depend on the processing

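The same 6 genes had a peak with windows of 500 bp, 1 kb, 2 kb or 10 kb and when any overlap with the window counted. At or above the median −log10 p of the list, 10.32, 5 genes remained, without GADD45A. At or above the upper quartile, 15.35, CDKN2C and CDKN2D remained, so 2 genes and 2 peaks were left, because fewer peaks were used. CDKN2D remained only through its peak 3028 bp downstream, beyond the gene on the KRI1 side. Its start-site peak, with a −log10 p of 15.34, fell just short. The count of 11 peaks became 18 within 10 kb and 6 within 500 bp, by construction of the windows. The other alternatives kept it between 8 and 11. Of 18 alternative rankings of the strongest peak per gene, 17 named the same peak. For CDKN1B, CDKN2C and ZBTB17, with 1 peak each in the window, no other outcome was possible. Taking the peak closest to the start gave CDKN2D a fold of 8.19 in place of 11.37. No paired analysis was possible because there is 1 ChIP library and its input, and no replicate could be left out. Pileups of 9 to 19 fragments limit what this depth can rank.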
